A study of Mus musculus with 46 samples.

Results

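The glucocorticoid receptor Nr3c1 and 8 genes that glucocorticoids are known to induce (Fkbp5, Tsc22d3, Klf9, Sgk1, Plin4, Cdkn1a, Sult1a1 and Nfkbia) were followed in the mouse nucleus accumbens, the forebrain region of reward and motivation. The members were chosen by name, with earlier results of these data known. All 9 had a feature with a value on every array, and all 9 were among the 9596 tested genes, of 16253 genes with such values. Each of the 46 arrays (Affymetrix MTA 1.0) held RNA of the accumbens of 1 male mouse. The mice came from 2 inbred strains, C57BL/6J or DBA/2J, and carried a subcutaneous minipump for 14 days, filled with saline or with nicotine at 24 mg/kg/day. In chronic groups the pump stayed in place to the end. In withdrawal groups it was taken out by surgery 24 h before death. For C57BL/6J there were 5 nicotine and 6 saline mice in the chronic phase and 6 and 6 in the withdrawal phase. For DBA/2J there were 6 and 6 in the chronic phase and 5 nicotine and 6 saline mice in the withdrawal phase. All groups had pump surgery, so no group is free of it, and the withdrawal groups of both drugs had a further operation. The age of the mice is not given in the sources used here.

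Corticosterone, the main adrenal glucocorticoid of mice, crosses into the brain and binds the receptor encoded by Nr3c1, which then enters the nucleus and binds DNA. The receptor raises genes that feed back on it, such as Fkbp5, a co-chaperone that lowers the receptor's affinity for hormone, and genes that act in metabolism, growth arrest and inflammation. In the brain this set is read as a sign of recent hormone exposure, and its level also follows the time of day and handling. Neither hormone levels nor the hour of death is given in the sources used here.

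Of 13 listed markers of striatal spiny neurons 9 had array values, and all 9 passed the intensity filter, set at the 50th percentile of the array on at least 5 arrays. Their summed log2 level ran from 111.1 to 120.2 over the mice. The same held for 7 of 12 markers of cortical excitatory neurons, whose summed log2 level ran from 76.1 to 86.7 over the mice, the widest range of the neuronal lists. Array medians lay between 6.52 and 6.63 (log2), and no array fell below a correlation of 0.993 with its group mates' mean. With arrays, precision is limited by the number of mice in a group. C57BL/6J chronic saline mouse 1 stood apart in these genes, and results that rest on it are given with and without it.

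Promoters are shown for the members whose levels moved together from mouse to mouse, described further on, with the letters the receptor is known to prefer in capitals. They come from RefSeq (GRCm38.p6), each covering 250 bases before and 50 bases after a start site and written 5′ to 3′ on the gene's strand. Of the members, 8 had promoters that were searched, 16 in all. An imperfect palindrome, GNACA followed by NNN and TGTNC (N being any base), and the shorter TGTTCT were searched on both strands. The shorter string fits the arm TGTNC, runs a base past it and can overlap the palindrome. The first occurred in 0.475% of 32851 mouse promoters and the second in 19.0%. Among the 16 promoters the palindrome was found in 1, that shown for Sgk1 (1 of 6 listed for this gene), where it begins at -188 from the start site as GAACAGAATGTTC, with overlapping shorter matches at -189 and -180 and a separate match at -242. The Sult1a1 promoter held the shorter motif at -212 and -34. Among searched promoters not shown, it also lay at -195 in another Sgk1 promoter, at -13 in a further Sgk1 promoter and at -185 in a Tsc22d3 promoter. The promoters shown for Nfkbia, Plin4 and Fkbp5 held neither string in this window.
Sgk1, chr10:21993640-21993939, + strand: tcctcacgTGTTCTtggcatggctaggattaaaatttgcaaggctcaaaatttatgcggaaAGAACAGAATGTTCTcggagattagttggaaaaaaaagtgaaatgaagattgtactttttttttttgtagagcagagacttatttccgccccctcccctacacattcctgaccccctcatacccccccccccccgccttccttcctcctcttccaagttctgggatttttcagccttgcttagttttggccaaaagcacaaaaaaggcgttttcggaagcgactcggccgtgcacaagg
Nfkbia, chr12:55492598-55492897, - strand: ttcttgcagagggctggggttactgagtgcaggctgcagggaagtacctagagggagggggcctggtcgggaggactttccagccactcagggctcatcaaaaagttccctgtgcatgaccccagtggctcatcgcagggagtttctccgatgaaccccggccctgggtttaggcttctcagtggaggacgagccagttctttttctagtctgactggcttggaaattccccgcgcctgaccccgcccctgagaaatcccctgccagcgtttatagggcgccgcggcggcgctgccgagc
Sult1a1, chr7:126676369-126676668, - strand: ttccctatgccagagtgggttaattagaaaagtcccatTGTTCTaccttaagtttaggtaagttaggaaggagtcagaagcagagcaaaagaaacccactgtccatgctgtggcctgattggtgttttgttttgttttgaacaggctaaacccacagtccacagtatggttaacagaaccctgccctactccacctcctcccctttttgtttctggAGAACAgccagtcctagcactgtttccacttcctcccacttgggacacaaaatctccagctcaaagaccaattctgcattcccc
Plin4, chr17:56109733-56110032, - strand: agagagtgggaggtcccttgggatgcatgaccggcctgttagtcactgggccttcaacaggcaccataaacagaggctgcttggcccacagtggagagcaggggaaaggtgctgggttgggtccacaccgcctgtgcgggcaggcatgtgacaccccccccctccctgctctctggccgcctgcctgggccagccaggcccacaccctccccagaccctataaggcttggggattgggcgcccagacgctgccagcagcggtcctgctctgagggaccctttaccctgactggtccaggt
Fkbp5, chr17:28486100-28486399, - strand: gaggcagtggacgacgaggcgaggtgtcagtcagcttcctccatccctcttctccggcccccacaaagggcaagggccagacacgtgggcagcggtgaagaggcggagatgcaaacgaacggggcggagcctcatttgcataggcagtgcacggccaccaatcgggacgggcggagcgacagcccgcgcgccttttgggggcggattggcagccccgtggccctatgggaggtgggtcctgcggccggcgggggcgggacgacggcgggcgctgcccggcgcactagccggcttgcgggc

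Each feature was ranked within its array, which shows how far it lay from the dim end. Features differ in their probes, so these ranks do not compare expression between genes. Klf9, a Krüppel-like transcription factor, was read by 40 probes on chromosome 19 (23141226 to 23166911) and lay between the 93.3rd and 95.7th percentile. Nr3c1, on chromosome 18 (39410545 to 39491301, 261 probes), lay between the 87.3rd and 89.8th. Sgk1, a kinase that acts on ion channels and transporters (chromosome 10, 278 probes), lay between the 83.2nd and 89.9th. Plin4, a coat protein of lipid droplets, passed the median of the array on 18 of 46 arrays, against 46 of 46 for the other 8, so its values lie near the low end of what the array resolves. The Fkbp5 feature spans 28397935 to 28517524 on chromosome 17, reaches past the RefSeq gene on both sides and carries a provisional symbol beside Fkbp5 in the deposited table. Other RefSeq genes overlap the Fkbp5, Plin4, Sgk1 and Klf9 features.

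**Figure D1:**
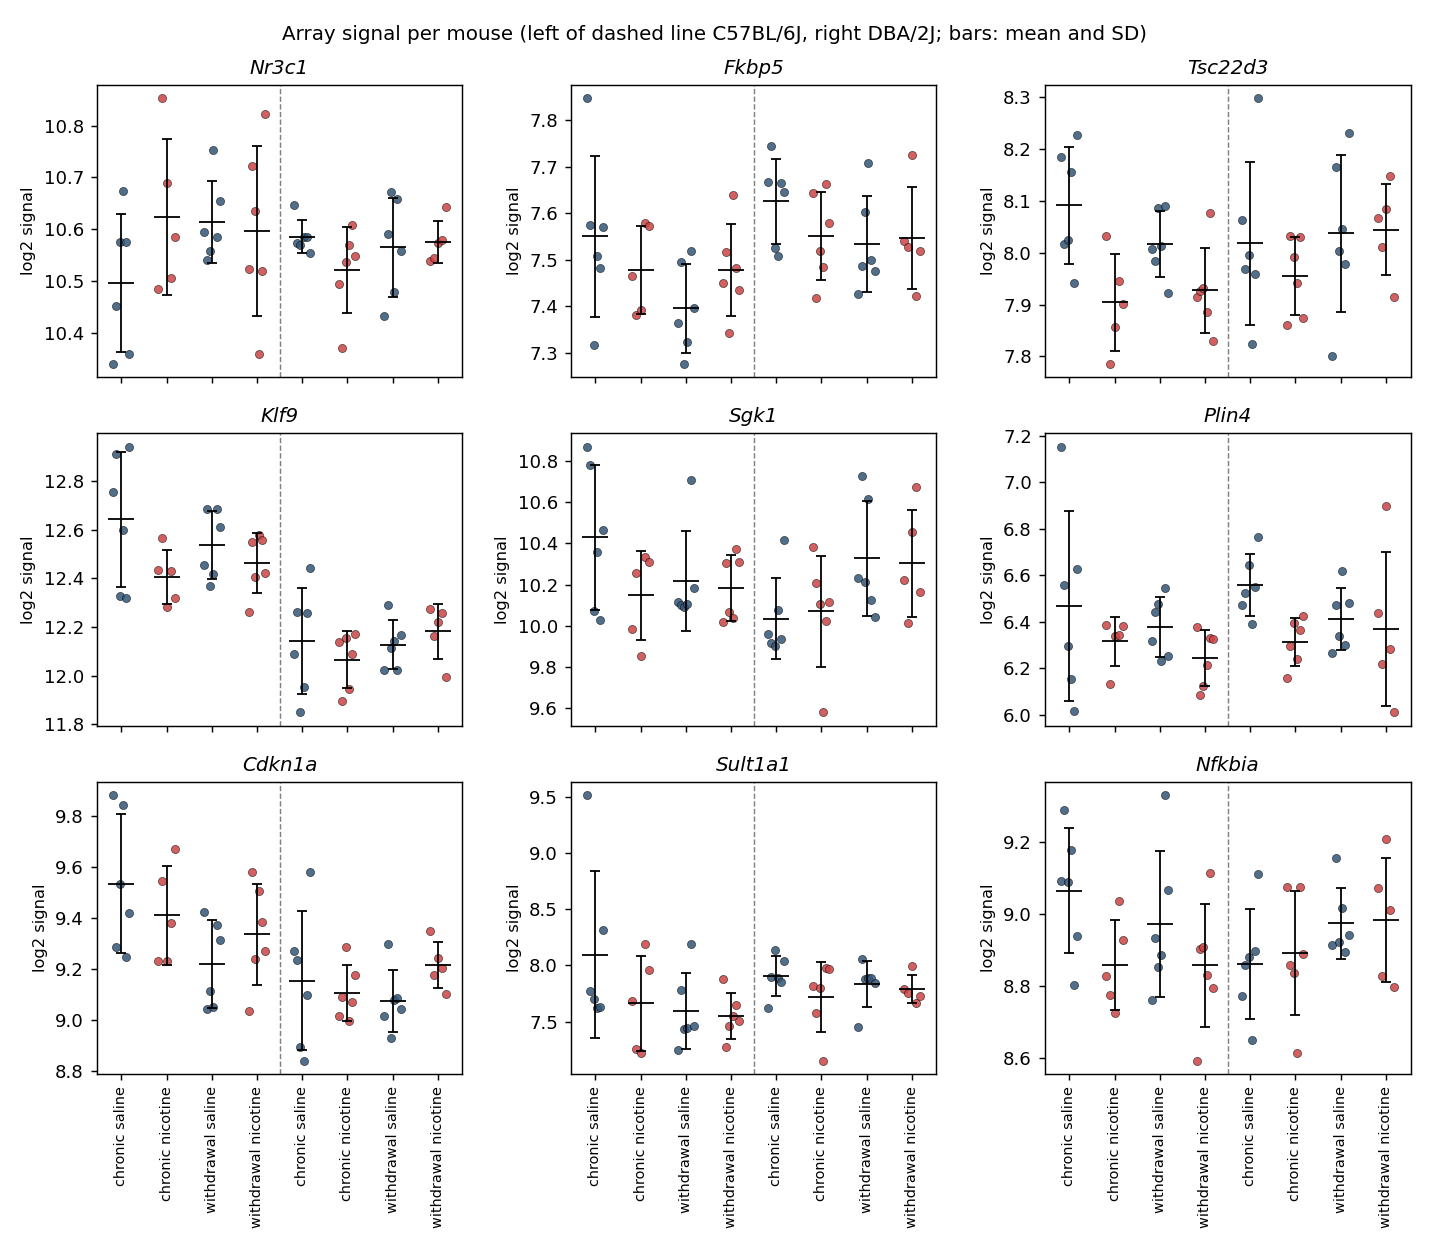
Log2 array signal of the 9 genes in each of the 46 mice, in 8 groups (blue saline, red nicotine), with the group mean and SD as black bars and a separate vertical scale for each gene. Klf9 shows the step between strains, and Sult1a1 and Plin4 show C57BL/6J chronic saline mouse 1 at 9.52 and 7.15, above all other mice.

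Between groups, the receptor varied least. Nr3c1 group means ran from 10.50 ± 0.13 (SD, n = 6) in C57BL/6J chronic saline mice to 10.62 ± 0.15 (n = 5) in C57BL/6J chronic nicotine mice, a range of 0.13 in log2 units. Klf9 had the widest range, 0.58, from 12.64 ± 0.28 (n = 6) in C57BL/6J chronic saline mice to 12.07 ± 0.12 (n = 6) in DBA/2J chronic nicotine mice. Sult1a1, a sulfotransferase of phenols and steroids, ranged over 0.54, from 8.09 ± 0.74 (n = 6) in C57BL/6J chronic saline mice to 7.55 ± 0.20 (n = 6) in C57BL/6J withdrawal nicotine mice. That range was 0.35 without C57BL/6J chronic saline mouse 1, since the mean of its group was 7.81 ± 0.29 (n = 5) and the highest mean was 7.91, in DBA/2J chronic saline mice. With all mice, C57BL/6J chronic saline mice had the highest mean of the 8 groups for Klf9, Sgk1, Cdkn1a, Sult1a1, Tsc22d3 and Nfkbia, and the lowest mean for Nr3c1. Without mouse 1 the group was no longer highest for Sult1a1 or lowest for Nr3c1, where its mean was 10.53 and that of DBA/2J chronic nicotine mice 10.52. When the 8 means of a gene were put in order, neighbouring means differed by more than both SDs at a single place. This was Klf9, between C57BL/6J chronic nicotine mice (12.41 ± 0.11, n = 5) and DBA/2J withdrawal nicotine mice (12.18 ± 0.11, n = 5), the point where the 4 groups of one strain end and those of the other begin.

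Klf9 and Cdkn1a were lower in DBA/2J than in C57BL/6J, with saline and with nicotine. Cdkn1a encodes p21, an inhibitor of cyclin-dependent kinases. These strain differences were the only differences of any member that passed the threshold, an adjusted p under 0.05 from limma, in the 17 contrasts fitted. Among saline mice 31.8% of the tested genes passed, 19.4% with lower values in DBA/2J, against 2 of 9 members, a share near the background.

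In C57BL/6J saline mice of both phases, Klf9 lay between 12.32 and 12.94, with a mean of 12.59. In DBA/2J saline mice it lay between 11.85 and 12.44, with a mean of 12.14. The strains overlapped at the edge, and 12 of 12 DBA/2J saline mice lay below the C57BL/6J mean. The difference was -0.45 ± 0.07 (SE, 12 against 12 mice, limma adjusted p = 2.8e-07). Among nicotine mice, where 26.2% of genes passed (10.8% with lower values in DBA/2J), DBA/2J values lay between 11.90 and 12.28 and C57BL/6J values between 12.26 and 12.58, which barely overlap. The difference was -0.31 ± 0.07 (SE, 11 against 11 mice, limma adjusted p = 0.000452).

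Cdkn1a lay between 9.04 and 9.88 in C57BL/6J saline mice and between 8.84 and 9.58 in DBA/2J saline mice. The ranges overlapped widely, while 11 of 12 DBA/2J mice lay below the C57BL/6J mean. The difference was -0.26 ± 0.08 (SE, limma adjusted p = 0.00637). Among nicotine mice it was -0.21 ± 0.08 (SE, 11 of 11 DBA/2J mice below, limma adjusted p = 0.0429). That call changed with the settings. It was lost when no intensity filter was applied (adjusted p = 0.0655), and in 14 of 22 repeats that left out 1 mouse, where the difference ran from -0.24 to -0.18. With the mouse number as a replicate block the adjusted p was 0.0531.

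The other members showed no strain difference that passed. Fkbp5 was closest among saline mice, with 0.11 ± 0.05 (SE, 11 of 12 DBA/2J mice above the C57BL/6J mean, limma adjusted p = 0.0678). Without C57BL/6J chronic saline mouse 1, the mouse with the highest Fkbp5 value, it was 0.14, with an adjusted p of 0.0111. For Nr3c1 the strain difference was 0.02 among saline mice, with a 95% interval from -0.07 to 0.11, so differences of the size of Klf9's lie outside it.

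Some genes around the receptor and its targets passed between strains, and they are given as a description. Of 32 other genes listed as induced by glucocorticoids, 17 were tested, and among saline mice 4 were lower and 1 was higher in DBA/2J, 5 of 17 where 31.8% of all genes passed. Fam107a, an actin-binding protein known as a stress-response gene, was lower by a difference of -1.13 ± 0.13 (SE, limma adjusted p = 7.71e-10). Gpd1, the cytosolic glycerol-phosphate dehydrogenase, differed by -0.35 (adjusted p = 0.000137) and Arl4d, a small GTPase, by -0.24 (adjusted p = 0.00159). Xdh, xanthine dehydrogenase, was higher by 0.48 (adjusted p = 4.3e-06). With nicotine the counts were again 4 lower and 1 higher.

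Of 17 genes of hormone supply, receptor partners and chaperones, 10 were tested, and Ptges3, the p23 co-chaperone that stabilises receptor complexes, was the single one that passed. It was lower in DBA/2J with saline (-0.17 ± 0.04 SE, limma adjusted p = 0.00092) and with nicotine (-0.16 ± 0.04, adjusted p = 0.00388). Cdkn1a is also a classic p53 target, and 3 of 11 listed p53 targets were tested. Mdm2, the ubiquitin ligase that degrades p53, and Ccng1, cyclin G1, were lower in DBA/2J saline mice, by differences of -0.35 (adjusted p = 6.57e-08) and -0.37 (adjusted p = 5.19e-05). Among nicotine mice 1 of the 3 passed as lower, and 1 had a higher mean that did not pass. A link of these genes to the Cdkn1a difference was not tested. Of 7 tested NF-kappa-B genes, the inhibitor Nfkbib passed among saline mice (-0.14, adjusted p = 0.0153) and the subunit Rel among nicotine mice (-0.20, adjusted p = 0.016). Beside these lists, 19.4% of all tested genes passed as lower in DBA/2J among saline mice and 10.8% among nicotine mice.

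Markers of mature oligodendrocytes, the myelin-forming cells, differed by strain in the same direction as Klf9 and Cdkn1a. Of 14 listed, 9 had array values, all passed the intensity filter, and 5 of the 9 were lower in DBA/2J in the saline and in the nicotine comparison. Among saline mice Mobp differed by -0.82 and Opalin by -0.49. The summed log2 level of the 9 ran from 104.7 to 112.0 in C57BL/6J mice and from 102.7 to 109.0 in DBA/2J mice. Striatal neuron markers were lower too, 4 of 9 among saline mice and 1 of 9 among nicotine mice. Of 7 tested microglia markers 2 were lower and 1 higher with saline, and 3 were lower and 1 higher with nicotine. Of 5 tested endothelial markers 1 was lower with saline and 0 with nicotine. Of all tested genes 19.4% were lower in DBA/2J with saline and 10.8% with nicotine. Other markers passed in the opposite direction. Of 8 tested astrocyte markers 2 were higher and 1 lower with saline, and 3 were higher with nicotine. Among 6 tested genes of the meninges and of fibroblasts 2 were higher with saline, and the 1 tested marker of choroid plexus was higher in both comparisons. Their part in the strain differences was not tested, and in bulk tissue fewer cells of a type and less RNA per cell cannot be told apart. Signal was compared between strains as deposited. Whether the strains differ in sequence under the probes, for Klf9, Cdkn1a or any other gene, was not examined.

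**Figure D2:**
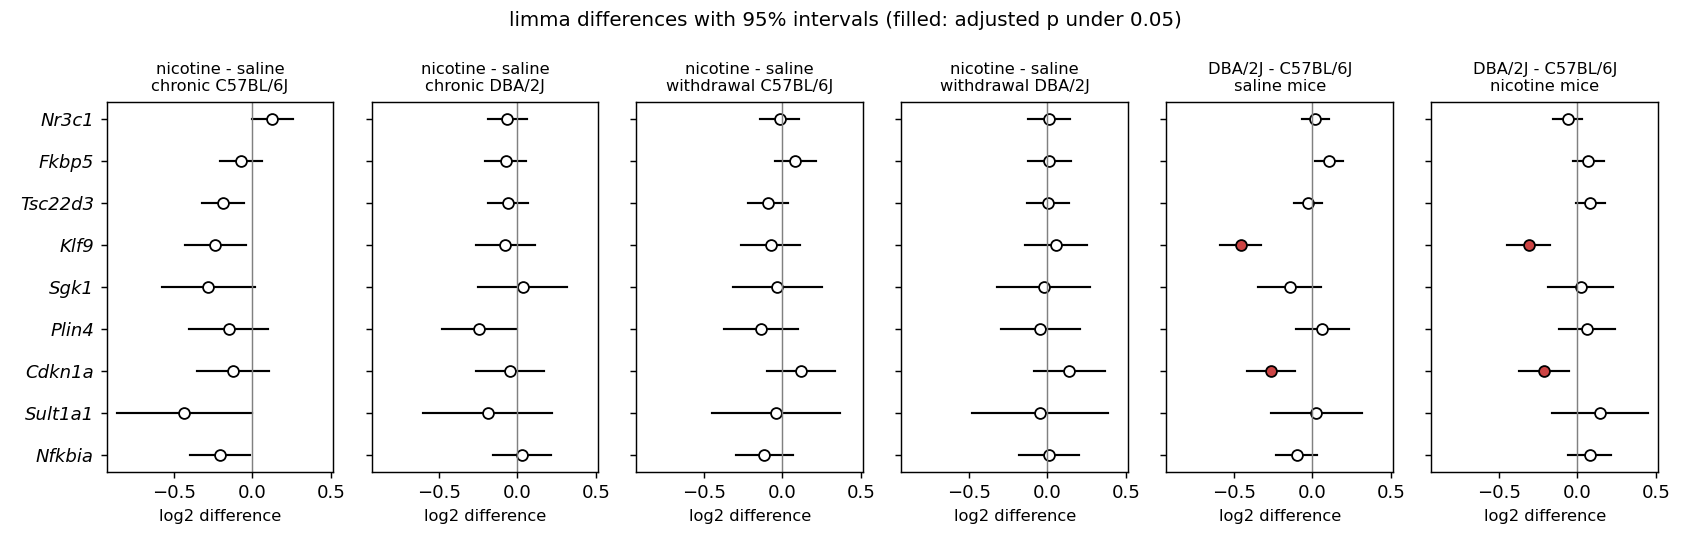
Log2 differences of the 9 genes with 95% intervals from limma, in the 4 comparisons of nicotine with saline and the 2 comparisons of strains. Filled points had an adjusted p under 0.05: Klf9 and Cdkn1a in both strain comparisons, at -0.45 and -0.26 with saline and -0.31 and -0.21 with nicotine.

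No difference of a member between nicotine and saline passed the threshold. In each of the 4 comparisons with saline, 0 of 9 members and 0 of 9596 genes (0%) passed with limma, and in all 4 the groups overlapped for all 9 members. Groups did not overlap for 0.208% of all genes in chronic C57BL/6J, 0.156% in chronic DBA/2J and in withdrawal C57BL/6J, and 0.542% in withdrawal DBA/2J. At an unadjusted p under 0.05 there were 4 members in the chronic phase of C57BL/6J (4.68% of all genes), 1 in that of DBA/2J (8% of all genes) and 0 in withdrawal of either strain (2.99% and 5.45%). In simulated data with the spread of these arrays, many genes were changed at once and noise was drawn independently for each gene. Under that setting limma recovered 86% of log2 changes of 0.5 and 39.5% of changes of 0.25 in the chronic C57BL/6J comparison. Changes of the smaller size would thus often not pass at this number of mice. With the adjustment used, recovery depends on how many genes change, so these shares do not give the sensitivity for a few changed genes.

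In the chronic phase of C57BL/6J, 8 of 9 members had a lower mean with nicotine, and Nr3c1 had a higher one. The median difference over the members was -0.19, against -0.03 over all tested genes, of which 65.5% were negative. The median over the members in DBA/2J was -0.06 with 7 of 9 negative, against 0.02 over all genes, of which 38% were negative. In withdrawal the medians were -0.04 in C57BL/6J and 0.01 in DBA/2J, with 7 and 3 of 9 negative. Of all tested genes 53.1% and 37.9% were negative there.

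Tsc22d3, whose leucine zipper protein restrains inflammatory signalling, had values of 8.03, 7.79, 7.86, 7.95 and 7.90 in the C57BL/6J chronic nicotine mice. The 6 saline mice had a lowest value of 7.94, a median of 8.09 and a highest value of 8.23. All 5 nicotine mice lay below the saline mean, and the groups overlapped between 7.94 and 8.03. The unadjusted p was 0.00708 and the limma adjusted p 0.992.

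Klf9 had values of 12.43, 12.57, 12.28, 12.43 and 12.32 with chronic nicotine. The saline mice ran from 12.32 through a median of 12.68 to 12.94, with 2 of them as low as the lower nicotine mice. Nfkbia, the inhibitor that holds NF-kappa-B in the cytoplasm, had 8.83, 8.78, 8.73, 9.03 and 8.93 with nicotine and ran from 8.80 through 9.09 to 9.29 with saline. For both genes 5 of 5 nicotine mice lay below the saline mean, and for both the limma adjusted p was 0.992.

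Sult1a1 had values of 7.68, 7.26, 7.22, 8.19 and 7.96 with chronic nicotine. The saline mice ran from 7.62 through a median of 7.74 to 9.52, and 4 of 5 nicotine mice lay below their mean. That mean rests on 1 mouse: the difference was -0.43 (unadjusted p = 0.0487) with all mice and -0.15 (unadjusted p = 0.374) without C57BL/6J chronic saline mouse 1. Without that mouse the difference of Plin4 went from -0.15 to -0.01 and that of Fkbp5 from -0.07 to -0.01. Tsc22d3 stayed at -0.17 and Klf9 at -0.21, and 8 of 9 members were still negative, with a median of -0.15. The unadjusted p was then under 0.05 for 2 members, Tsc22d3 and Klf9, where 3.64% of all genes were.

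In the chronic phase of DBA/2J, Plin4 was the member that stood out. Its nicotine mice had a lowest value of 6.16, a median of 6.33 and a highest value of 6.42, and its saline mice 6.39, 6.54 and 6.77. All 6 nicotine mice lay below the saline mean, and the groups overlapped only near 6.4. The difference was -0.25 ± 0.12 (SE), with an unadjusted p of 0.0439 and a limma adjusted p of 0.617. Beside it, mean levels with nicotine were lower for 9 of 9 oligodendrocyte markers (median -0.22) and 6 of 7 cortical markers (median -0.41), and higher for 9 of 9 striatal markers (median 0.24). None of these passed, and their part in the members' values was not tested.

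The differences of the receptor with chronic nicotine had opposite signs in the 2 strains. In C57BL/6J, Nr3c1 had 10.49, 10.85, 10.69, 10.51 and 10.59 with nicotine and ran from 10.34 through 10.51 to 10.67 with saline, so that 4 of 5 nicotine mice lay above the saline mean. In DBA/2J it ran from 10.37 through 10.54 to 10.61 with nicotine and from 10.56 through 10.58 to 10.65 with saline, and 5 of 6 nicotine mice lay below the saline mean. The test of the difference between strains gave -0.19 ± 0.09 (SE, unadjusted p = 0.04, limma adjusted p = 0.5), and 9.95% of all genes had an unadjusted p under 0.05 in that comparison. It is therefore not shown that the strains differed.

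Of the 17 other tested genes induced by glucocorticoids, 15 had lower and 2 higher means with chronic nicotine in C57BL/6J, where 65.5% of all tested genes were lower. Their median was -0.14, and none passed. Without C57BL/6J chronic saline mouse 1 the counts were 14 and 3 and the median was -0.09. The 2 with the smallest p were Fam107a (-0.53, limma adjusted p = 0.992) and Hif3a, an inhibitory hypoxia-inducible factor (-0.27, adjusted p = 0.992). In DBA/2J 11 of 17 were lower, with a median of -0.07, where 38% of all tested genes were lower. In C57BL/6J markers of other cells had different means beside the members: the mean was lower with nicotine for 4 of 4 tested red blood cell genes (median -0.40) and higher for 6 of 6 tested genes of meninges and fibroblasts (median 0.19). None of these passed, and their part in the members' values was not tested.

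The authors' S-scores compare each nicotine mouse with the saline mice of the matching group. They share the saline mice and the arrays with the log2 values and are no separate evidence. In the chronic phase of C57BL/6J 8 of 9 members had a negative mean S-score, against 49.5% of the 25801 genes in that table. Mean scores were -2.91 for Sgk1, -2.66 for Sult1a1 and -1.85 for Tsc22d3, while that of Nr3c1 was 1.28. Their unadjusted limma p was 0.0538, 0.0249, 0.00153 and 0.202. The scores use all saline mice of the group, C57BL/6J chronic saline mouse 1 among them, and cannot be given without it. In the chronic phase of DBA/2J and in withdrawal of C57BL/6J 7 of 9 members had a negative mean score, against 55.3% and 51.2% of all genes. In withdrawal of DBA/2J it was 2 of 9, against 47.7%. For Sgk1, Klf9, Plin4, Cdkn1a, Tsc22d3 and Nfkbia, 5 of 5 C57BL/6J chronic nicotine mice had a negative score. How many other genes did so is not given here. In that group of mice 0 members and 0 genes passed with limma. The unadjusted p was under 0.05 for 4 of 9 members, against 807 of 25801 genes.

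Taking out the saline pump is an operation without a drug, and no member difference passed for it either. It was compared through the saline mice of the withdrawal and the chronic groups, and the chronic saline mice are the same ones that served the nicotine comparison. In C57BL/6J 8 of 9 members had lower means after removal (median -0.11), against 53.7% of all tested genes (median -0.01). Of the members 0 of 9 passed, as 0% of all genes did. At an unadjusted p under 0.05 there were 3 members, against 3.74% of all genes. When C57BL/6J chronic saline mouse 1 was left out there was 1 member, against 2.67% of all genes, and 7 of 9 members had lower means. Beside the members, mean levels after removal were lower for 4 of 4 red blood cell genes (median -0.64) and higher for 9 of 9 oligodendrocyte markers (median 0.19). They were also lower for 5 of 5 tested endothelial markers (median -0.16) and 6 of 6 tested genes of meninges and fibroblasts (median -0.27). None of these passed, and their part in the members' values was not tested.

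Cdkn1a ran from 9.04 through 9.21 to 9.42 after removal and from 9.25 through 9.47 to 9.88 with the pump in place. All 6 mice after removal lay below the mean of the mice with pumps, and the groups overlapped between 9.25 and 9.42. The difference was -0.32 ± 0.11 (SE, unadjusted p = 0.00538, limma adjusted p = 0.998), and without C57BL/6J chronic saline mouse 1 it was -0.25. The other 2 were Fkbp5 at -0.15 and Sult1a1 at -0.50, which became -0.10 and -0.22 without that mouse.

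In DBA/2J, Sgk1 was the member with the largest difference after removal. It ran from 9.90 through 9.95 to 10.42 with the pump in place and from 10.04 through 10.22 to 10.73 after removal. All 6 mice after removal lay above the mean of the others, with overlap between 10.04 and 10.42. The difference was 0.29 ± 0.14 (SE, unadjusted p = 0.0436, limma adjusted p = 1), where 4.05% of all genes had an unadjusted p under 0.05. In C57BL/6J the same difference was -0.21, and the test between strains gave 0.50 ± 0.20 (SE, unadjusted p = 0.0152, limma adjusted p = 1), where 2.91% of all genes had an unadjusted p under 0.05. The C57BL/6J difference was -0.12 and the difference between strains 0.41 without C57BL/6J chronic saline mouse 1 (unadjusted p = 0.0407, limma adjusted p = 1). Among nicotine mice, pump removal gave 0 members with an unadjusted p under 0.05 in either strain, where 7.81% and 3.76% of all genes had one.

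The clearest pattern of the targets lay between mice of the same group. After each value was set against its group mean, 29 of the 36 pairs of members correlated positively over the 46 mice. The median r was 0.40, against 0.03 over all pairs of tested genes, whose 90th percentile was 0.34. Without C57BL/6J chronic saline mouse 1 the median was 0.39. The 46 points share their arrays and dissections, and the members were chosen with earlier results of these data known. These are therefore descriptions of how the genes moved together in these samples.

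**Figure D3:**
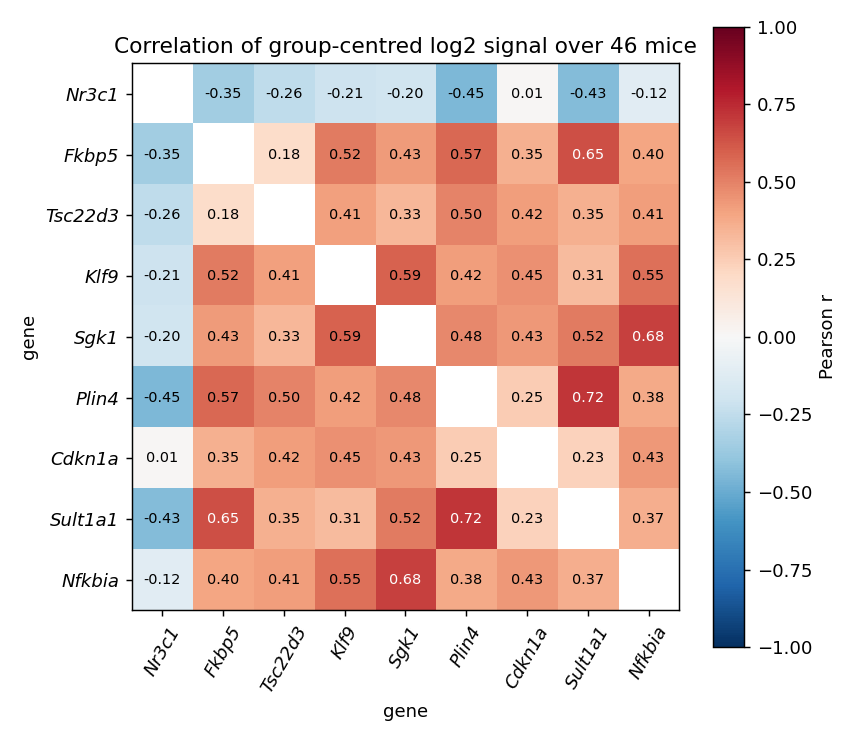
Pearson correlation of each pair of the 9 genes over 46 mice, after each value was set against its group mean (red positive, blue negative). The 8 targets correlate positively with each other, up to 0.72 for Plin4 and Sult1a1, and the Nr3c1 row is negative apart from 0.01 with Cdkn1a.

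Sgk1 and Nfkbia were each other's closest match among all 9595 other tested genes, with r = 0.68 (Spearman's rho 0.65, limma adjusted p = 0.00682). For Sgk1 and for Nfkbia 0.0208% of genes passed. The r was 0.71 without C57BL/6J chronic saline mouse 1 and 0.66 without the 2 mice farthest from the median. In C57BL/6J withdrawal saline mouse 5, Sgk1 was 10.71 and Nfkbia 9.33, each the highest of its group, and in DBA/2J chronic saline mouse 6 they were 10.42 and 9.11, again the highest of their group.

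Plin4 and Sult1a1 had the highest r of all member pairs, 0.72 (rho 0.64). Each pair was fitted both ways, with the values of either gene added to the group model. With Sult1a1 added the limma adjusted p was 0.000158, and 0.334% of genes passed with a positive and 0.323% with a negative sign. With Plin4 added it was 0.00036, and 0.0625% of genes passed. With Fkbp5 added, Sult1a1 correlated with it at 0.65 and Plin4 at 0.57 (limma adjusted p = 0.00799 and 0.0385). In that fit 0.313% of genes passed with a positive and 0.0521% with a negative sign. The fit with Plin4 added did not pass for Fkbp5 (adjusted p = 0.102), while that with Sult1a1 added did (adjusted p = 0.00714). These pairs leaned on C57BL/6J chronic saline mouse 1. Without it r was 0.54, 0.50 and 0.42, and none passed (adjusted p = 0.107, 0.169 and 0.315).

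The receptor ran the other way. Nr3c1 correlated negatively with 7 of the 8 targets, with a median r of -0.23. With Nr3c1 added to the group model, Plin4 (r = -0.45, limma adjusted p = 0.0406) and Sult1a1 (r = -0.43, adjusted p = 0.0478) passed. In that fit 1.8% of genes passed with a negative sign. The reverse fits, with Plin4 or Sult1a1 added, did not pass for Nr3c1 (limma adjusted p = 0.307 and 0.174). Without C57BL/6J chronic saline mouse 1 these correlations were -0.38 and -0.36 and neither passed. With arrays centred on their median the correlation with Plin4 was -0.41 and did not pass either (adjusted p = 0.0652). The genes most like Nr3c1 over the 46 mice were Cpd, a carboxypeptidase (r = 0.84), Rock2, a protein kinase (0.81), and Ptk2, focal adhesion kinase (0.80). Positive correlation with Nr3c1 passed for 6.49% of all genes, far more than for any other member.

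Outside the set, the genes closest to Fkbp5 were Ppp2r5b, a phosphatase subunit (r = 0.70), Adcy9, an adenylyl cyclase (0.67), and Fam107a (0.66). For Tsc22d3 they were Endod1 (0.64), Hif3a (0.62) and Nde1 (0.58), and 0 genes (0%) passed with Tsc22d3. For Klf9 they were Usp3, a deubiquitinase (0.64), Epm2a, the glycogen phosphatase laforin (0.61), and Pwwp2b (0.59), again with 0% passing. For Sgk1 they were Usp3 again (0.66), Vrk1, a nuclear kinase (0.62), and Rbfox1, a splicing factor of neurons (0.62). Fam107a and Hif3a are on the list of other induced genes.

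Lists taken as a whole are given as a description, since they too were chosen with earlier results of these data known. In each mouse the mean deviation of the 9 members correlated at r = 0.76 (rho 0.71) with that of the other genes induced by glucocorticoids, and at 0.72 both without C57BL/6J chronic saline mouse 1 and without the 2 mice farthest from the median. For the other 12 lists r lay between -0.22 for receptor partners and 0.21 for striatal neurons and for microglia. It was 0.14 for endothelial cells, 0.01 for mature oligodendrocytes and -0.07 for cortical neurons.

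C57BL/6J chronic saline mouse 1 was singled out for its high member values. The member counts given for it are therefore a description and no test. It had the highest value of all 46 mice for 5 of 9 members, against 3.46% of all tested genes, and the lowest for Nr3c1. Sult1a1 was 9.52 in it, 1.71 above the mean of the other 5 mice of its group, Plin4 7.15 (0.82 above), Sgk1 10.87 (0.53 above), Cdkn1a 9.88 (0.42 above) and Fkbp5 7.85 (0.36 above). Nr3c1 was 10.34. The mouse exceeded all 5 group mates in 5 of 9 members, against 14% of all tested genes, while Klf9, Tsc22d3 and Nfkbia lay within the range of the others. It also exceeded all of them in 5 of 9 tested striatal neuron markers, and in 0 of 7 tested cortical markers.

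Of the 17 other induced genes this mouse exceeded its group mates in 6 and lay below all of them in 3, with a median of 0.03. The 3 were Dusp1, a phosphatase of MAP kinases, at -0.61 from their mean, Arl4d at -0.33 and Ddit4, an inhibitor of mTOR signalling, at -0.17. Fam107a was 1.42 above their mean, the metallothioneins Mt1 and Mt2, which bind zinc and copper, 0.56 and 0.55 above, Hif3a 0.53 above, and Cebpd, a transcription factor of the acute phase response, 0.33 above. These last 5 were the highest of the 46 mice. Genes outside the lists that were also highest there include Ly6a (1.59 above) and Ctla2a (1.14 above), named after their values were seen. Tissue markers differed in this mouse too: the median of 7 cortical markers was -0.46 from the mean of its group mates, that of 9 striatal markers 0.37 and that of 9 oligodendrocyte markers -0.21. Of 5 endothelial markers 2 exceeded the group mates. The part of tissue make-up in its member values was not tested.

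**Figure D4:**
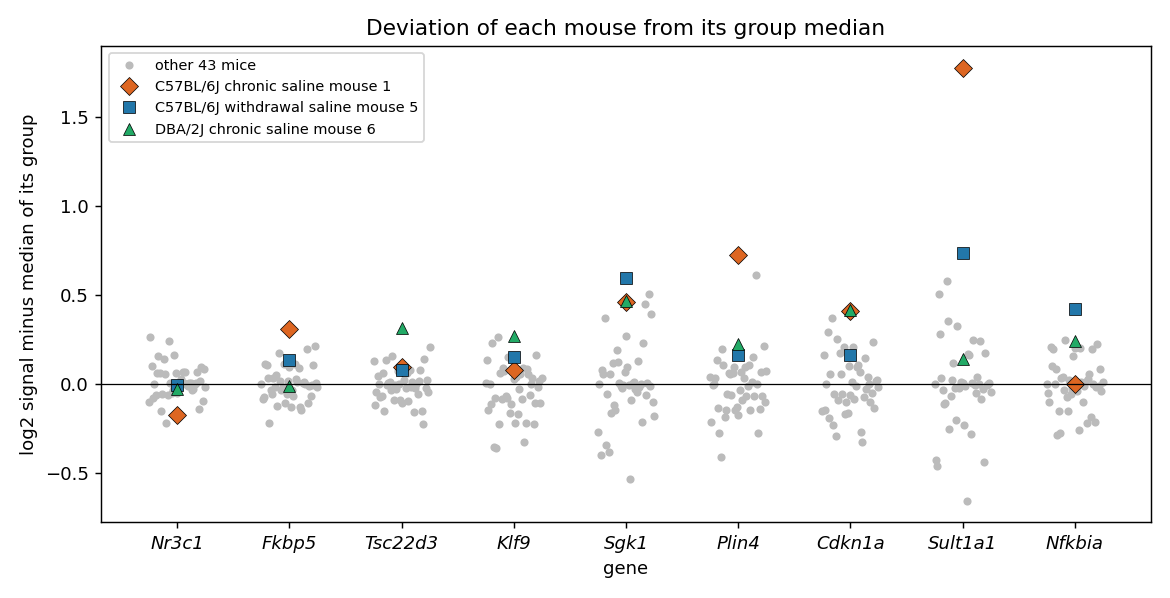
Log2 signal of each mouse minus the median of its group for the 9 genes, with the 3 mice of highest mean deviation marked and the other 43 in grey. C57BL/6J chronic saline mouse 1 is highest for Sult1a1, Plin4 and Fkbp5, and C57BL/6J withdrawal saline mouse 5 is highest for Sgk1 and Nfkbia.

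Other mice departed from their group too. C57BL/6J withdrawal saline mouse 5 lay above its group median in 8 of 9 members, by 0.27 on average, and DBA/2J chronic saline mouse 6 in 7 of 9, by 0.23. The first was led by Sult1a1 (8.19) and Sgk1 (10.71), and the second by Sgk1 (10.42), Cdkn1a (9.58) and Tsc22d3 (8.30). At the low end were C57BL/6J chronic saline mouse 5, by -0.21 on average, and DBA/2J chronic nicotine mouse 4, also by -0.21, whose Sgk1 (9.58) and Sult1a1 (7.15) were the lowest of all mice. The 3 highest mice and the lowest one were saline mice.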

How the data were processed

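The members and the 13 gene lists were chosen with earlier results of these data known. The authors deposited log2 values, 1 per array and transcript cluster, already scaled between arrays; how they were summarised and scaled, and on which build, is not given in the sources used here. A second file deposited by the authors holds gene names, coordinates and S-scores. This score is, per the file headers, a value for each of the 22 nicotine mice relative to the saline mice of the matching group; its software is likewise not given in the sources used here. The feature with the highest mean stood for a gene. Genes above the 50th percentile of non-control features on at least 5 arrays were tested with limma 3.58.1 in R 4.3.3 (data.table in version 1.17.8, jsonlite 2.0.0; 8 group coefficients, 17 contrasts, 38 residual degrees of freedom, two-sided), with Benjamini-Hochberg adjustment over 9596 genes within a contrast and a threshold of 0.05. Covariation was tested by adding the values of a member to the same group model. Each pair was fitted both ways and counted as passed when either fit passed. Where no direction is named, the smaller adjusted p is given. S-scores were tested with limma, with saline mice assumed to vary like nicotine mice. Named were all members, up to 4 genes of a list that passed or the 2 with the smallest p, and the 3 genes most correlated with Nr3c1, Fkbp5, Tsc22d3, Klf9 and Sgk1. The fit was tested on simulated data. Other filters, scalings, weights, blocks and samples were tried. Plots used matplotlib 3.10.9 in Python 3.11.15 with pandas 2.3.3. Mouse numbers did not pair mice: same-numbered mice of different groups had a median correlation of -0.0024 over 155 pairs, against -0.0027 over 770 other pairs.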

Additional observations from a re-analysis of the deposited data

Results flagged for a closer look

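Each of the 9 genes was checked in each of the 8 groups for a mouse far from the others by Dixon's test, 72 checks in all, of which chance would mark about 1 in 20. A mouse was marked in 6. Nr3c1 was 10.65 in DBA/2J chronic saline mouse 1, with the next at 10.59 in a group of narrow spread. Sgk1 was 10.71 in C57BL/6J withdrawal saline mouse 5, with the next at 10.18, and 10.42 in DBA/2J chronic saline mouse 6, with the next at 10.08. Plin4 was 6.13 in C57BL/6J chronic nicotine mouse 2, below the next at 6.34. Sult1a1 was 9.52 in C57BL/6J chronic saline mouse 1, above the next at 8.32, and 7.45 in DBA/2J withdrawal saline mouse 1, below the next at 7.84.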

How the results depend on the processing

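No member difference or member pair that passed turned its direction under the alternatives run. Among those that did not pass, the strain difference of the chronic nicotine effect on Sult1a1 went from 0.24 to -0.04 without C57BL/6J chronic saline mouse 1. Members passing between strains among nicotine mice numbered 1 in place of 2 without the intensity filter and with the replicate block, and 1 to 2 when each mouse was left out, since Cdkn1a was lost; the replicate block changed no other count of members. Genes passing between strains numbered 1995 with saline and 1610 with nicotine, in place of 3052 and 2510, above the 75th percentile, where fewer genes were tested. Counts of 0 became 3 for DBA/2J withdrawal with only its groups fitted and 2 for pump removal among C57BL/6J nicotine mice with array weights. With each mouse left out, the strain difference of the nicotine effect gave 0 to 5 genes in the chronic phase (5 without C57BL/6J chronic saline mouse 3) and 0 to 1 in withdrawal (1 without DBA/2J withdrawal nicotine mouse 5), and no member was among the calls counted. The cause of these shifts was not tested. Member pairs that passed in either fit fell from 6 to 1 without C57BL/6J chronic saline mouse 1, an alternative chosen after seeing the data. Leaving out each mouse moved the members' median with chronic nicotine in C57BL/6J between -0.24 and -0.15. Fkbp5 passed between strains among saline mice in 3 of 24 such repeats. Signal over background limits Plin4.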
